A study of Rattus norvegicus with 10 samples.

Results

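The genes described here make up the perineuronal net and the diffuse extracellular matrix of the brain, and they were taken as a fixed list of 10. The list held the lecticans Acan (aggrecan), Bcan (brevican), Ncan (neurocan) and Vcan (versican), the link proteins Hapln1, Hapln2 and Hapln4, the tenascins Tnr and Tnc, and the hyaluronan synthase Has2. In the bulk gene table, whose rows carry Entrez identifiers that were matched to symbols, 9 of 14166 genes belonged to the list. Has2 had no row in that table and was not analysed in bulk. In the nucleus matrices all 10 were among the 25399 genes.

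A perineuronal net is a lattice of matrix around the cell body and proximal dendrites of certain neurons, most densely around parvalbumin interneurons. Hyaluronan, a long sugar chain made at the cell surface by hyaluronan synthases, forms its backbone. Lecticans are chondroitin sulfate proteoglycans that bind hyaluronan at one end, link proteins clamp that bond, and tenascin-R ties lectican tails together at the other end. Nets stabilize synapses in the adult brain, and the matrix around them is remodelled by proteases after injury.

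The tissue was the ipsilateral dentate gyrus of young adult male Sprague-Dawley rats, taken 3 weeks after surgery. TBI rats received a moderate lateral fluid percussion injury, a pressure pulse to the dura over the right parietal cortex, some days after a craniectomy. Sham rats had the same surgery without the pulse, and a naïve rat had no surgery. Bulk RNA-seq was done on 3 TBI and 3 sham rats. For snRNA-seq, nuclei came from 2 TBI rats and from 1 sham and 1 naïve rat, which together formed the control group.

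Bulk libraries held 25121893 to 44649404 estimated counts, and 55124 nuclei passed the filters, with medians of 1647 to 2652 UMIs per nucleus. Pairs of nucleus libraries shared 46 to 64 barcodes, at most 0.455% of the smaller library. Some bulk libraries stood apart in their cell type markers. The 11 oligodendrocyte markers summed to 17680 CPM in sham 2 and to 5279 to 8197 CPM in the other 5 libraries. The 6 fibroblast markers summed to 1496 CPM in TBI 3 and to 52.6 to 254 CPM elsewhere. Granule neuron markers, which define the labelled tissue, summed to 510 CPM in sham 1, 351 in TBI 1 and 291 in TBI 3, but to 99.9, 104 and 121 CPM in sham 2, sham 3 and TBI 2. In bulk tissue, fewer cells of a type and less RNA per cell cannot be told apart.

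Several of these genes lie side by side in the genome, so that neighbours could be compared. In the RefSeq annotation of the rat build GRCr8, Bcan and Hapln2 are neighbours on chromosome 2, as are Vcan and Hapln1, and Ncan and Hapln4 are neighbours on chromosome 16. The 250 bases before the annotated start of Bcan, Hapln2, Ncan and Hapln4 are shown because these pairs of neighbours were the least alike in the nuclei, and that of Tnc because it had the largest Log2FC in bulk. Each is written 5′ to 3′ on the gene's strand, with motif letters in capitals. The motifs searched were the TATA box (TATAAA or TATAAG, gene strand), the GC box (GGGCGG, both strands, so that CCGCCC also counts) and the SOX core (ACAAAG or ACAATG, both strands).
Bcan, chr2:175765315-175765564, minus strand: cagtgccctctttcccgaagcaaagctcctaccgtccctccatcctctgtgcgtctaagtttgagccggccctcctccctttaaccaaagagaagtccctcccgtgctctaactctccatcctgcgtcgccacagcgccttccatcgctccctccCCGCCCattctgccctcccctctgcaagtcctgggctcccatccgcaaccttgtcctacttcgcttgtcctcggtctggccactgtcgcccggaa
Hapln2, chr2:175794439-175794688, minus strand: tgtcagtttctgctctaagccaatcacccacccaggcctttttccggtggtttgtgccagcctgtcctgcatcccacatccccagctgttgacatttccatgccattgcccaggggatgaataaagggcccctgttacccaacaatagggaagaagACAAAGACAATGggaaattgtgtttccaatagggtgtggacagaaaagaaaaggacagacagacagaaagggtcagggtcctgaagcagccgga
Ncan, chr16:19335657-19335906, plus strand: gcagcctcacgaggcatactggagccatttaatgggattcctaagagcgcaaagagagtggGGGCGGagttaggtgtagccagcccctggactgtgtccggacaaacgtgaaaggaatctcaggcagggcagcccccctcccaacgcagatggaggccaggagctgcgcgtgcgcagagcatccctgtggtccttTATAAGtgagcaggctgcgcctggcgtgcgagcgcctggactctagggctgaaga
Hapln4, chr16:19375174-19375423, minus strand: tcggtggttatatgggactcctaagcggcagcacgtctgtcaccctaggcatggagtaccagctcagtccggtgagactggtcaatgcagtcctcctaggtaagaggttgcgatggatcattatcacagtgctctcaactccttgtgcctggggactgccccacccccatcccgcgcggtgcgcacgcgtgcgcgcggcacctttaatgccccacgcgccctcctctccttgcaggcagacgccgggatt
Tnc, chr5:82476132-82476381, minus strand: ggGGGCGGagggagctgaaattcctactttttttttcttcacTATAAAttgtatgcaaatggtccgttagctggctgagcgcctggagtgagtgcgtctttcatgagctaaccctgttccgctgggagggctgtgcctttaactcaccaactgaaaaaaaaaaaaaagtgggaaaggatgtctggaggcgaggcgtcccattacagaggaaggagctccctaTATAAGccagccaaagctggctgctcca

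Tnc held TATA box letters 208 and 28 bases before its start and a GC box 248 bases before it. Ncan held TATA box letters 55 bases before its start. The window of Hapln2 held a pair of adjoining SOX cores, 94 and 88 bases before the start, whereas that of its neighbour Bcan held a single GC box. No letters of the 3 motifs were found in the window of Hapln4. Over 33469 rat windows of the same length, 11.6% held the TATA box, 30.5% the GC box and 25.3% the SOX core. A match is a description of letters only. Of the members, 9 had a window, and none was found for Has2.

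The first question was which cells of the dentate gyrus carried each gene. Nuclei were grouped into 24 clusters with the 10 genes left out of the clustering, and 20 clusters took 1 of 10 class names from marker genes. Levels are CPM of the UMIs summed over a class, and 95% exact Poisson intervals in parentheses cover counting error only. No test was run between classes, since clusters were drawn from the same nuclei. The genes fell into 4 patterns. Vcan, Tnr, Has2 and Acan were highest in the oligodendrocyte lineage before myelination, Tnc, Ncan and Hapln1 in astrocyte-like nuclei, Hapln2 in oligodendrocyte-like nuclei, and Hapln4 in granule neuron-like nuclei. Bcan was shared between committed oligodendrocyte precursor-like and astrocyte-like nuclei. Thinned to 1000 UMIs per nucleus, the leading class by share of nuclei with a UMI was the same for 10 of 10 genes.

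**Figure D1:**
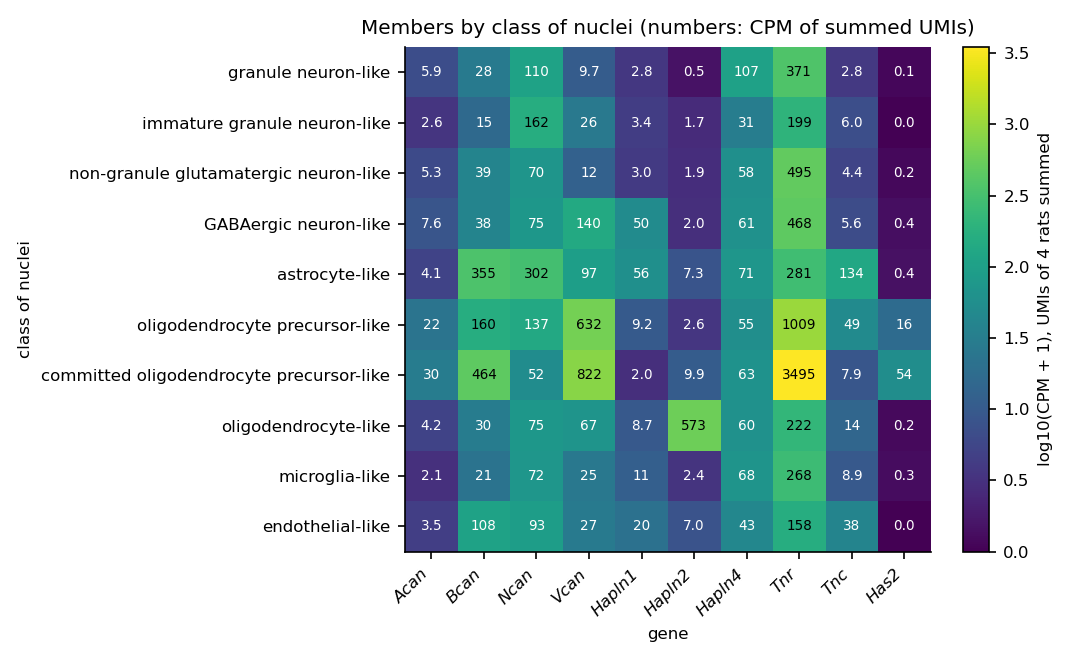
Level of each gene (columns) in each class of nuclei (rows), with the UMIs of the 4 rats summed; the printed number is CPM and the colour is log10(CPM + 1), and levels are to be compared within a column. Tnr in committed oligodendrocyte precursor-like nuclei was at 3495 CPM, and Hapln2 was at 573 CPM in oligodendrocyte-like nuclei and at most 9.91 CPM in any other class.

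Committed oligodendrocyte precursors are cells that have left the precursor state and have not yet formed myelin. There were 310 such nuclei, and they carried 3495 CPM (3334 to 3662) of Tnr, the tenascin that crosslinks lecticans in the net. The rats gave 2937 and 3168 CPM (TBI), 3394 CPM (sham) and 4666 CPM (naïve). In oligodendrocyte precursor-like nuclei Tnr was at 839 and 1085 CPM in the TBI rats, 971 CPM in the sham and 1178 CPM in the naïve rat. The ranges of the 2 classes did not overlap, and every rat had more Tnr in the committed class. Every neuronal class held Tnr too, from 199 CPM in immature granule neuron-like nuclei to 495 CPM in non-granule glutamatergic neuron-like nuclei. Of all Tnr UMIs, 49.98% came from granule neuron-like nuclei and 3.42% from the committed class, which held 54.1% and 0.392% of the UMIs of all genes.

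Vcan, the lectican of loose and developing matrix, was at 822 CPM (745 to 905) in the committed class and at 632 CPM (607 to 658) in the precursor class. It was higher in the committed class in 4 of 4 rats, but the ranges over rats overlapped (697 to 930 against 542 to 799 CPM). The next class was GABAergic neuron-like, with 140 CPM. Vcan lies beside Hapln1, which had 9.22 CPM in the precursor class and 1 UMI in the committed class. Has2, which makes the hyaluronan backbone, was sparse, with 122 UMIs in all. Of these, 22.1% were in the committed class and 50% in the precursor class, whose nuclei held 0.392% and 2.95% of all UMIs. Its level was 53.5 CPM (35.3 to 77.8) in the committed class and 16.1 CPM (12.3 to 20.7) in the precursor class, and at most 0.435 CPM in the other 8 classes. The ranges over rats of the 2 leading classes did not overlap, at 33.2 to 71.5 and 12 to 20.5 CPM.

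Acan, the core lectican of perineuronal nets, was low everywhere in these nuclei. It was at 29.7 CPM (16.6 to 49.0) in the committed class, from 15 UMIs, and at 21.9 CPM (17.4 to 27.1) in the precursor class. The rats spread from 7.98 to 59.8 CPM and from 17.0 to 28.7 CPM in these classes, so that their order was not resolved. GABAergic neuron-like nuclei held 7.58 CPM (6.03 to 9.41) and granule neuron-like nuclei 5.95 CPM (5.39 to 6.55). Through their number, granule neuron-like nuclei still gave 52.1% of the 794 Acan UMIs.

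Bcan, a lectican of astrocytes and of the oligodendrocyte lineage, was at 464 CPM (406 to 527) in the committed class and at 355 CPM (346 to 364) in astrocyte-like nuclei. The ranges over rats overlapped, at 252 to 616 and 263 to 424 CPM. Precursor nuclei followed with 160 CPM. Astrocyte-like nuclei gave 56.9% of all Bcan UMIs. Its neighbour Hapln2, the link protein found at nodes of Ranvier of myelinated axons, had a different pattern. Oligodendrocyte-like nuclei held 573 CPM (550 to 596) of Hapln2 and 89.7% of its UMIs, and the next class held 9.91 CPM. The rats ranged from 394 to 742 CPM in oligodendrocyte-like nuclei, and both the lowest and the second highest value came from controls.

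Ncan, a lectican that binds neural adhesion molecules, was at 302 CPM (294 to 311) in astrocyte-like nuclei, with 257 to 336 CPM over rats. Immature granule neuron-like nuclei came next with 162 CPM (140 to 187), and their range of 127 to 190 CPM did not overlap. Granule neuron-like nuclei held 110 CPM and, by number, 47.5% of the Ncan UMIs. Hapln1, the link protein of cartilage and of perineuronal nets, was at 56.4 CPM in astrocyte-like nuclei and at 50.5 CPM in GABAergic neuron-like nuclei. The ranges over rats were 38.7 to 76.4 and 30.0 to 76.0 CPM, so that these classes did not differ beyond their spread. Tnc, the tenascin of developing and injured tissue, was at 134 CPM (128 to 139) in astrocyte-like nuclei, which gave 74.8% of its UMIs. Precursor nuclei followed with 49.0 CPM (42.2 to 56.6), and the ranges over rats did not overlap (81.5 to 183 against 43.4 to 59.5 CPM).

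Hapln4, the link protein that anchors brevican at inhibitory synapses, was at 107 CPM (105 to 110) in granule neuron-like nuclei, which gave 66.4% of its UMIs. All other classes held 30.9 to 70.7 CPM. Slc17a7, the vesicular glutamate transporter of excitatory neurons, was also found in glial and endothelial-like nuclei, at 34.5% (endothelial-like) to 67.5% (microglia-like) of its granule neuron level. A gene's granule neuron level multiplied by that share is here called its scaled level. It counts all Slc17a7 in a class as granule neuron RNA, although other excitatory neurons carry Slc17a7 too. The scaled level of Hapln4 was 52.3 CPM in precursor, 54.5 CPM in oligodendrocyte-like, 72.3 CPM in microglia-like and 37.0 CPM in endothelial-like nuclei. The measured levels there were 54.6, 60.4, 67.8 and 42.6 CPM, each with a counting interval that held the scaled level. Single rats spread more widely, from 6.96 to 82.6 CPM in endothelial-like nuclei. The part of granule neuron RNA in these levels was not tested. For Tnr, 268 CPM in microglia-like nuclei stood beside a scaled level of 250 CPM. For Ncan, 71.6 CPM in microglia-like and 51.5 CPM in committed precursor-like nuclei stood beside 74.4 and 57.3 CPM. The scaled levels of Bcan, Vcan, Tnc, Hapln1 and Hapln2 in their leading glial classes were far below the measured ones, at most 14.8 CPM.

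In granule neuron-like nuclei, Vcan, Hapln1 and Tnc differed widely between the TBI rats and between the controls. Each library came from 1 rat, so library and rat cannot be told apart. Vcan was at 16.5 and 2.64 CPM in the TBI rats, 18.6 CPM in the sham and 0.0472 CPM in the naïve rat. Tnc was at 5.66, 1.073, 4.37 and 0.142 CPM in the same order, and Hapln1 at 4.76, 0.826, 4.93 and 0.283 CPM. TBI rat 1 and the sham rat were high for all 3 genes and the other rats low, so TBI and control ranges overlapped. The deposited matrices also differed in their stored entries of 0. These made up 1.63% of entries in TBI rat 1, 11.1% in the sham, 15.5% in the naïve rat and 27.4% in TBI rat 2. What produced them, and their part in the levels per rat, was not tested.

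Perineuronal nets are best known around parvalbumin interneurons, so GABAergic neuron-like nuclei were divided by the marker they carried. A nucleus counted for Pvalb, Sst, Vip or Lamp5 where it had a UMI of that gene and none of the other three. Acan was at 43.1 CPM (22.3 to 75.2) in the 65 Pvalb nuclei, from 12 UMIs, with 41.1 and 68.2 CPM in the TBI rats, 55.1 CPM in the sham and 28.0 CPM in the naïve rat. In the 634 Sst nuclei it was at 4.17 CPM (1.91 to 7.92), with 2.39 to 7.81 CPM over rats. Every rat had more Acan in Pvalb nuclei, and the ranges did not overlap. In Vip and Lamp5 nuclei Acan had 1 UMI each. The numbers of Pvalb nuclei, 14 to 18 per rat, were too small to compare TBI with control.

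Hapln1 and Vcan marked other interneurons. Hapln1 was at 152 CPM (129 to 178) in the 347 Lamp5 nuclei, 35.9 CPM (17.2 to 66.0) in Pvalb nuclei and 16.7 CPM (11.7 to 23.1) in Sst nuclei. Lamp5 nuclei held 80.6 to 285 CPM over rats, above the Sst nuclei of every rat (13.7 to 20.8 CPM). Vcan was at 166 CPM (142 to 193) in Lamp5 nuclei and at 39.4 CPM (31.5 to 48.8) in Sst nuclei. The 1330 nuclei with a UMI of Reln, a secreted glycoprotein of several interneuron types, and none of the 4 markers held 254 CPM of Vcan and 62.1 CPM of Hapln1. Tnr had the opposite order, at 740 CPM (704 to 777) in Sst and 635 CPM (545 to 736) in Pvalb nuclei but 344 CPM in Vip and 324 CPM in Lamp5 nuclei. In every rat Tnr was higher in Sst and Pvalb nuclei than in Vip and Lamp5 nuclei. Hapln4 was at 136 CPM (96.5 to 187) in Pvalb nuclei and 56.1 CPM (46.6 to 67.1) in Sst nuclei.

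**Figure D2:**
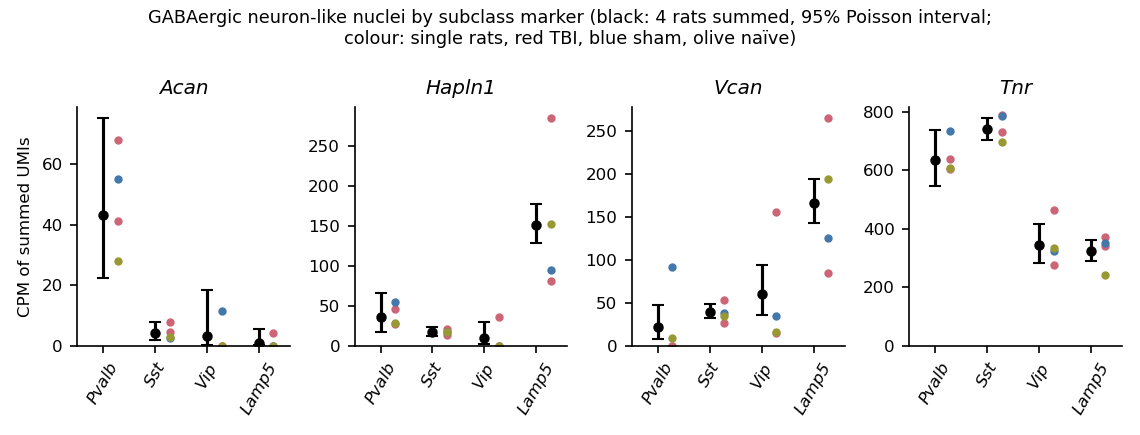
Levels of Acan, Hapln1, Vcan and Tnr (CPM of summed UMIs) in GABAergic neuron-like nuclei that carried Pvalb, Sst, Vip or Lamp5; black points with bars are the 4 rats summed with 95% exact Poisson intervals, and coloured points are single rats (red TBI, blue sham, olive naïve). Acan was at 43.1 CPM in Pvalb and 4.17 CPM in Sst nuclei, and Hapln1 and Vcan were highest in Lamp5 nuclei.

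Across the 24 clusters, the genes most like each member were sought among 12253 genes by the Pearson correlation of log2(CPM + 1), given as a description over clusters that share libraries and depth. Tnr was most like an unnamed gene, AABR07021536.1 (r = 0.99), then Rap1gap (r = 0.87) and Fyn (r = 0.86), a Src family kinase of oligodendrocyte maturation. Acan was most like AABR07021536.1 and Rap1gap too (r = 0.84 each), and then Cdan1 (r = 0.83). Hapln2 was most like Tf, which encodes transferrin, Mog, a myelin surface glycoprotein, and Hhip (r = 0.95, 0.94 and 0.94). Tnc was most like Rfx4, Htra1 and Rgs20 (r = 0.95, 0.94 and 0.94), Vcan like Sema5b, Efs and Atat1 (r = 0.92, 0.91 and 0.88), and Bcan like Tecta, Col27a1 and Sox6 (r = 0.85, 0.84 and 0.84). Ncan was most like Ttyh3, AABR07053687.1 and Dipk1c (r = 0.85, 0.82 and 0.82), Hapln1 like Mindy2, Alk and Ptprm (r = 0.86, 0.81 and 0.81), and Hapln4 like Epha8, Xkr8 and AABR07017902.1 (r = 0.85, 0.83 and 0.83). Has2 was below the 200 UMIs set for this search. Among the other members, Acan and Tnr (r = 0.82) and Bcan and Tnc (r = 0.72) were most alike. The neighbours Bcan and Hapln2 (r = 0.07), Ncan and Hapln4 (r = 0.07) and Vcan and Hapln1 (r = 0.47) were less so.

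The second question was whether TBI changed these genes in bulk tissue. None of the 9 passed an FDR of 0.05 by edgeR's quasi-likelihood test, as was so for all genes tested (0 of 14166, 0%), with 1360 genes (9.6%) at an unadjusted p under 0.05. DESeq2 called 349 of 14154 genes (2.47%) and none of the 9. Tnc was the member with p under 0.05, and it was higher after TBI. The Log2FC was above 0 for 4 members and below 0 for 5, with a median of -0.13 against -0.00 over all genes. In 2 members, Tnc and Bcan, all TBI libraries lay above all sham libraries, and in none did all lie below. The same held for 11.7% and 3.04% of all genes.

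**Figure D3:**
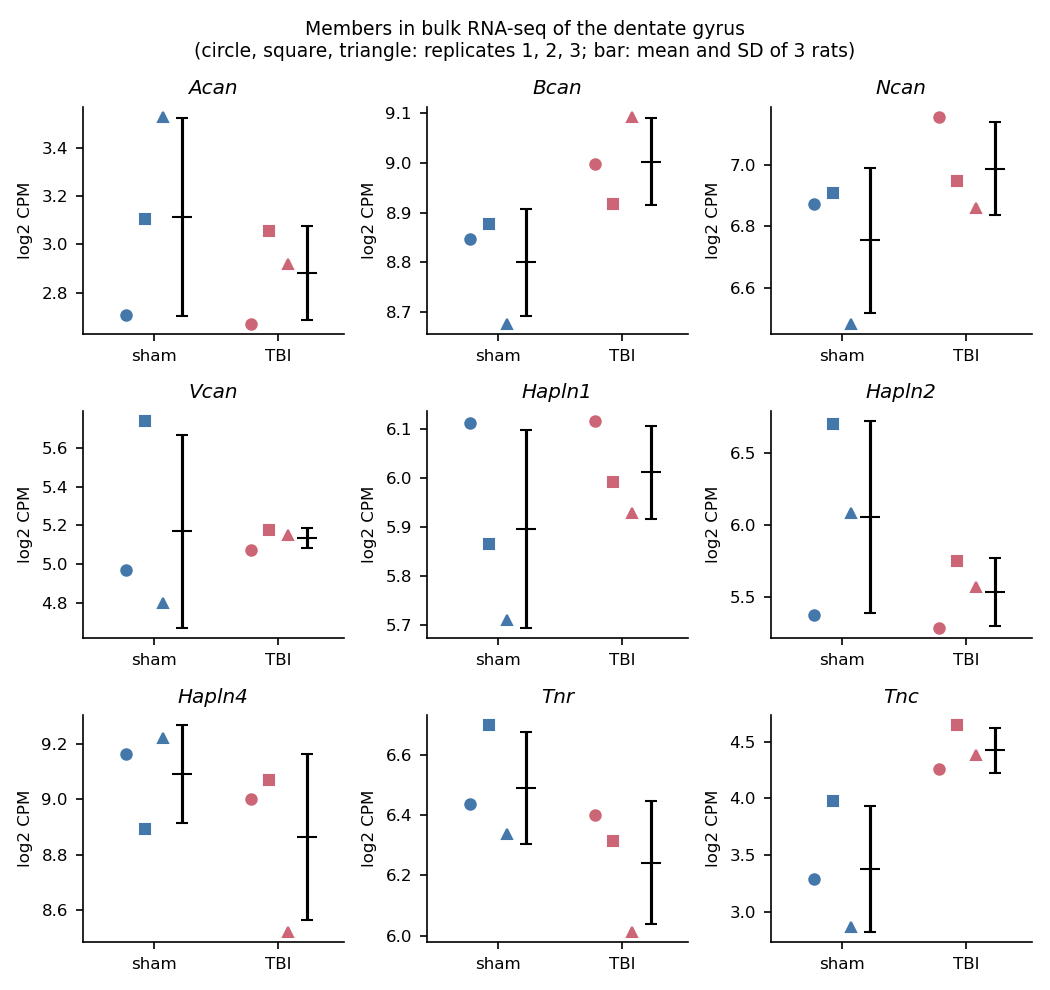
log2 CPM of the 9 genes in the bulk table (1 panel each, each with its own scale) in 3 sham (blue) and 3 TBI (red) libraries; circle, square and triangle are replicates 1, 2 and 3, and bars are the mean and SD. The TBI points of Tnc and Bcan all lay above the sham points, and the other 7 genes overlapped.

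Tnc (Entrez 116640) was at a log2 CPM of 3.29, 3.97 and 2.87 in the sham libraries and 4.26, 4.64 and 4.38 in the TBI libraries. The groups did not overlap, and sham 2 was the sham library nearest to TBI. The mean was 10.9 ± 4.31 CPM in sham and 21.6 ± 3.04 CPM in TBI (SD, n = 3 each). The Log2FC was 0.95 (SE 0.28; edgeR FDR = 0.311), and DESeq2 gave 0.93 with FDR = 0.0622. Without sham 2 the Log2FC was 1.31 by edgeR, and Tnc was then called by DESeq2 (1.29, FDR = 8.54e-06), as were 3.3% of all genes. Without sham 3 the Log2FC was 0.72 by edgeR and 0.71 by DESeq2, and over all alternatives in edgeR, DESeq2 and limma the FDR ran from 8.54e-06 to 0.799. Libraries were split here into 2 periods by the recorded date of injury or sham procedure, before July (called spring) or later (called autumn). The difference in log2 CPM was 0.62 in spring (sham 1, sham 2, TBI 1) and 1.64 in autumn (sham 3, TBI 2, TBI 3). The single Tnc transcript in the count table gave a Log2FC of 0.96 (edgeR FDR = 0.461).

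Astrocyte markers moved in the same direction. Their sum was 3111, 3387 and 2611 CPM in sham and 5193, 8276 and 5013 CPM in TBI, of which Gfap, the intermediate filament of astrocytes, gave 891 to 1304 CPM in sham and 2583 to 5395 CPM in TBI. Of the 9 astrocyte markers in the table, 6 had all TBI libraries above all sham libraries and none had all below. Per 1000 CPM of these markers, Tnc was at 3.15, 4.64 and 2.80 in sham and 3.68, 3.02 and 4.15 in TBI, and the groups overlapped. With Gfap left out of the sum, the ratio was 4.99, 7.55 and 4.26 in sham and 8.09, 8.68 and 8.56 in TBI, without overlap and higher by 0.64 on the log2 scale. The part of astrocyte RNA in the higher level of Tnc was not tested.

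**Figure D4:**
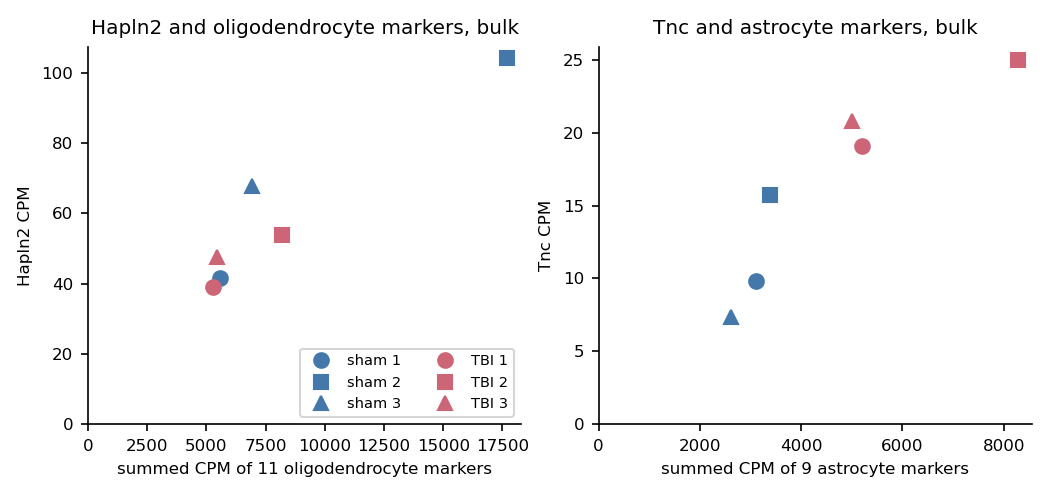
Left, Hapln2 CPM against the summed CPM of 11 oligodendrocyte markers; right, Tnc CPM against the summed CPM of 9 astrocyte markers; each point is a bulk library (blue sham, red TBI; circle, square and triangle are replicates 1, 2 and 3). Sham 2 had the most oligodendrocyte marker RNA and the most Hapln2, and all TBI libraries had more astrocyte marker RNA and more Tnc than all sham libraries.

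Bcan (Entrez 25393) was at a log2 CPM of 8.85, 8.88 and 8.67 in sham and 8.998, 8.92 and 9.09 in TBI. Sham 2 and TBI 2 lay close together, and the Log2FC was 0.16 (SE 0.10; edgeR FDR = 0.674). Ncan (Entrez 58982) was at 6.87, 6.91 and 6.48 in sham and 7.15, 6.95 and 6.86 in TBI, which overlapped (Log2FC 0.19, SE 0.14; edgeR FDR = 0.747). Hapln1 (Entrez 29331) was at 6.11, 5.87 and 5.71 against 6.12, 5.99 and 5.93, with a Log2FC of 0.07 (SE 0.12; edgeR FDR = 0.917). Of these 3 genes, all present in astrocyte-like nuclei, Bcan had groups that did not overlap, and none passed the test. Per 1000 CPM of astrocyte markers, each was lower in every TBI library than in every sham library, by 0.79, 0.76 and 0.87 on the log2 scale for Bcan, Ncan and Hapln1. With Gfap left out, the differences were -0.21, -0.18 and -0.29, and only Bcan did not overlap.

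Hapln2 (Entrez 64057) was the member with the largest fall in value, at a log2 CPM of 5.37, 6.70 and 6.08 in sham and 5.28, 5.75 and 5.57 in TBI. The groups overlapped because sham 1 was as low as the TBI libraries, and the test was not passed (Log2FC -0.65, SE 0.31; edgeR FDR = 0.599). Without sham 2, the library with 17680 CPM of oligodendrocyte markers, the Log2FC was -0.27. Without sham 1 it was -0.95 by DESeq2, which then called it (FDR = 0.00656), as it did 2.43% of all genes. The difference in log2 CPM was -0.75 in the spring surgeries and -0.42 in the autumn ones. Per 1000 CPM of oligodendrocyte markers, Hapln2 was at 7.41, 5.89 and 9.78 in sham and 7.38, 6.55 and 8.70 in TBI, a log2 difference of -0.01. On that ratio the groups overlapped.

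Tnr, Hapln4, Acan and Vcan had a Log2FC below 0 and did not pass the test. Tnr (Entrez 25567) was at a log2 CPM of 6.44, 6.70 and 6.34 in sham and 6.40, 6.31 and 6.01 in TBI (Log2FC -0.28, SE 0.15; edgeR FDR = 0.630). Hapln4 (Entrez 361129) was at 9.16, 8.89 and 9.22 against 9.001, 9.07 and 8.52 (Log2FC -0.25, SE 0.17; edgeR FDR = 0.718). In both genes the lowest library was TBI 3, the one with the most fibroblast marker RNA. Acan (Entrez 58968) was at 2.71, 3.10 and 3.53 against 2.67, 3.06 and 2.92 (Log2FC -0.30, SE 0.24; edgeR FDR = 0.764). Vcan (Entrez 114122) was at 4.97, 5.74 and 4.80 against 5.07, 5.18 and 5.15 (Log2FC -0.13, SE 0.24; edgeR FDR = 0.925). Without sham 2, whose 5 committed precursor markers summed to 635 CPM against 237 to 350 CPM elsewhere, the Log2FC of Vcan was 0.21. In these 4 genes the TBI and sham libraries overlapped.

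Other matrix genes were read from 5 lists of 82 genes, of which 76 were in the bulk table. None was called by edgeR and 5 were called by DESeq2, all higher after TBI, as were 2.39% of all genes. At an unadjusted p under 0.05, 15 were higher and 1 lower, against 8.2% and 1.4% of all genes. All TBI libraries lay above all sham libraries in 16 and below in 2, against 11.7% and 3.04%. The median Log2FC was 0.17 against -0.00 over all genes.

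Matrix proteases and their inhibitors cut and protect lecticans, and 7 of 19 were higher at an unadjusted p under 0.05, against 8.2% of all genes, and none lower (median Log2FC 0.39). Timp1, a secreted metalloprotease inhibitor, was at 1.77, 2.66 and 1.605 CPM in sham and 3.98, 5.37 and 9.42 CPM in TBI (Log2FC 1.61; DESeq2 FDR = 0.0107). Mmp2, a gelatinase, had a Log2FC of 0.94 (DESeq2 FDR = 0.0310). Adamts8, a protease of the family that cleaves lecticans, had a Log2FC of 1.595 (DESeq2 FDR = 0.0980). Timp3, an inhibitor bound to the matrix, was at 131 CPM in TBI 3 and at 32.1 to 45.9 CPM in the other libraries (Log2FC 0.97; DESeq2 FDR = 0.224). Markers of mural cells, the pericytes and smooth muscle of vessels, summed to 152 to 174 CPM in sham and 204 to 858 CPM in TBI, with 6 of 9 above sham in all TBI libraries. Fibroblast markers summed to 52.6 to 103 CPM in sham and 107 to 1496 CPM in TBI, with 3 of 6 above. The part of these cells in the values of the proteases and inhibitors was not tested.

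Hyaluronan synthesis and turnover had 13 genes in the table, of which 12 were higher in value (median Log2FC 0.39), 3 of them with an unadjusted p under 0.05. Of all genes, 49.4% were higher in value and 8.2% were higher at that threshold. Stab1, a scavenger receptor that takes up hyaluronan, was at 4.78, 6.14 and 5.20 CPM in sham and 10.4, 10.3 and 26.8 CPM in TBI (Log2FC 1.52; DESeq2 FDR = 0.0110). Hexa, a lysosomal enzyme gene, was higher in all TBI libraries (Log2FC 0.65; DESeq2 FDR = 0.00613). Cemip2 had a Log2FC of 0.27. Microglia markers summed to 226 to 240 CPM in sham and 382 to 675 CPM in TBI, with 9 of 10 markers above sham in all TBI libraries, and their part in these values was not tested.

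Of 20 genes of chondroitin sulfate synthesis, 2 were higher at an unadjusted p under 0.05 and none lower, a share near the 8.2% of all genes, and the median Log2FC was 0.04. The TBI and sham libraries did not overlap in 4 of them. These were Chst14 (Log2FC 0.82) and Dse (0.66), enzymes of dermatan sulfate formation, Chst7 (-0.31), a sulfotransferase, and Xylt2 (0.19), which starts the sugar chain. Of 14 receptors of matrix and chondroitin sulfate, 1 had p under 0.05, Ptprf, a receptor phosphatase that binds these chains (Log2FC 0.36). Of 10 other proteoglycans, link proteins and tenascins, 2 were higher and 1 lower at that threshold. Bgn, a small leucine-rich proteoglycan, was at 24.7, 26.1 and 18.2 CPM in sham and 39.4, 29.2 and 110 CPM in TBI (Log2FC 1.33). The high value was again in TBI 3, the library with 1496 CPM of fibroblast markers. Spock3, a neuronal testican, had a Log2FC of -0.54.

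The third question was whether the levels per rat differed between TBI and control in nuclei. With all nuclei summed, edgeR called none of the 10 genes, and 3 had an unadjusted p under 0.05, against 3.44% of 15959 genes. Among these, Bcan and Tnc were lower in value in both TBI rats than in both controls, and Hapln2 was higher. Of the 10 members, 5 had both TBI rats above both controls and 2 had both below. The share of all genes with such a split was not counted over all nuclei, so these counts cannot be set against other genes. Within astrocyte-like nuclei such splits were common. There, 27.6% of genes with at least 100 UMIs had both TBI rats above both controls and 17.8% had both below. Tnc was at 17.6 and 16.5 CPM in the TBI rats, 23.0 CPM in the sham and 30.6 CPM in the naïve rat (Log2FC -0.73, SE 0.23; edgeR FDR = 0.982). Bcan was at 71.6, 56.4, 77.9 and 100 CPM in the same order (Log2FC -0.55, SE 0.19; edgeR FDR = 0.982). Hapln2 was at 20.03, 40.7, 12.8 and 15.9 CPM (Log2FC 1.01, SE 0.36; edgeR FDR = 0.982). Astrocyte-like nuclei, which held most UMIs of Tnc and Bcan, made up 8.09% and 6.74% of nuclei in the TBI rats. They made up 12% in the sham and 8.39% in the naïve rat, so both TBI rats had a smaller share than both controls. An unnamed cluster with mitochondrial genes and Gfap among its top genes was not counted in this share. It held 466 and 788 nuclei in the TBI rats, 555 in the sham and 283 in the naïve rat. The part of the astrocyte-like share in the summed levels of Tnc and Bcan was not tested.

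Oligodendrocyte-like nuclei, which held most of the Hapln2 UMIs, made up 6.24% and 9.48% of nuclei in the TBI rats, 4.47% in the sham and 3.31% in the naïve rat. Both TBI rats had more of them than both controls, but the sham rat had more of them than the naïve rat and less Hapln2. Their part in the summed level was not tested. Without TBI rat 1 the Log2FC of Hapln2 over all nuclei was 1.44 and edgeR called it (FDR = 0.0213), as it did 0.686% of 16480 genes. Without TBI rat 2 it was 0.40. Within oligodendrocyte-like nuclei, Hapln2 was at 445 and 742 CPM in the TBI rats, 394 CPM in the sham and 708 CPM in the naïve rat. The groups overlapped, and the Log2FC was -0.01 (SE 0.34; edgeR FDR = 0.999). The summed level of Hapln2 thus pointed in opposite directions in bulk tissue and in nuclei, and in neither assay did it differ beyond the spread relative to oligodendrocyte RNA.

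Astrocyte-like nuclei held 4 of the members with an unadjusted p under 0.05, of 9 tested, where 12.8% of 12517 genes reached it. Tnc, Bcan and Hapln1 were lower in both TBI rats than in both controls, as were 17.8% of genes with at least 100 UMIs, and Hapln4 was higher in both, as were 27.6%. edgeR called none, and DESeq2 called Tnc, Bcan and Hapln4, against 263 of 18781 genes (1.4%). The unnamed cluster with Gfap among its top genes was not part of these nuclei. In it, Tnc was at 13.15 and 15.56 CPM in the TBI rats, 12.02 CPM in the sham and 28.93 CPM in the naïve rat. Hapln1 was at 14.61, 22.74, 12.02 and 26.52 CPM in the same order, and both genes overlapped. Bcan was lower there in both TBI rats (45.29, 47.87, 52.1 and 53.04 CPM), and Hapln4 was higher in both.

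Tnc was at 81.5 and 102 CPM in astrocyte-like nuclei of the TBI rats, 148 CPM in the sham and 183 CPM in the naïve rat (Log2FC -0.92, SE 0.19; edgeR FDR = 0.176; DESeq2 FDR = 0.00887). Bcan was at 273, 263, 420 and 424 CPM (Log2FC -0.72, SE 0.14; edgeR FDR = 0.174; DESeq2 FDR = 0.00732). The controls of Bcan lay close together, with both TBI rats below them. Hapln1 was at 38.7, 46.9, 55.8 and 76.4 CPM (Log2FC -0.70, SE 0.22; edgeR FDR = 0.267; DESeq2 FDR = 0.210). Ncan, the other lectican of these nuclei, was at 257, 309, 336 and 308 CPM and overlapped (Log2FC -0.25, SE 0.16; edgeR FDR = 0.569).

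Other RNA moved with these values. Slc17a7 in astrocyte-like nuclei was at 353 and 363 CPM in the TBI rats, 194 CPM in the sham and 223 CPM in the naïve rat. The 10 astrocyte markers summed to 4044 and 5842 CPM in the TBI rats, 6365 CPM in the sham and 7643 CPM in the naïve rat, with 6 of 10 below both controls in both TBI rats. Per 1000 UMIs of these markers, Tnc was at 20.1, 17.4, 23.3 and 23.9, still below in both TBI rats, by 0.33 on the log2 scale of the group means. Bcan was at 67.4, 45.03, 65.9 and 55.5 and Hapln1 at 9.56, 8.03, 8.76 and 10.00, and both overlapped. Ncan was at 63.6, 52.9, 52.8 and 40.3, higher in value in the TBI rats. The mix of astrocyte-like nuclei differed as well. At a finer clustering (resolution 1.0), 1 astrocyte-like cluster had a median of 1196 UMIs. It held 428 of 1029 and 367 of 996 astrocyte-like nuclei in the TBI rats, 1290 of 2079 in the sham and 471 of 963 in the naïve rat. The part of this mix, of neuronal RNA and of astrocyte RNA in the lower CPM was not tested.

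Hapln4 was at 104 and 96.2 CPM in astrocyte-like nuclei of the TBI rats, 43.1 CPM in the sham and 49.9 CPM in the naïve rat (Log2FC 1.04, SE 0.18; edgeR FDR = 0.174; DESeq2 FDR = 0.00600). Its scaled levels, from the Slc17a7 of the same nuclei, were 88.6, 86.1, 43.5 and 35.2 CPM. The measured values lay above those levels in the TBI and naïve rats and just below in the sham rat, and the part of granule neuron RNA in the difference was not tested. In granule neuron-like nuclei, where Hapln4 was highest, it was at 128 CPM in each TBI rat, 85.1 CPM in the sham and 99.4 CPM in the naïve rat (Log2FC 0.41, SE 0.16; edgeR FDR = 0.999).

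**Figure D5:**
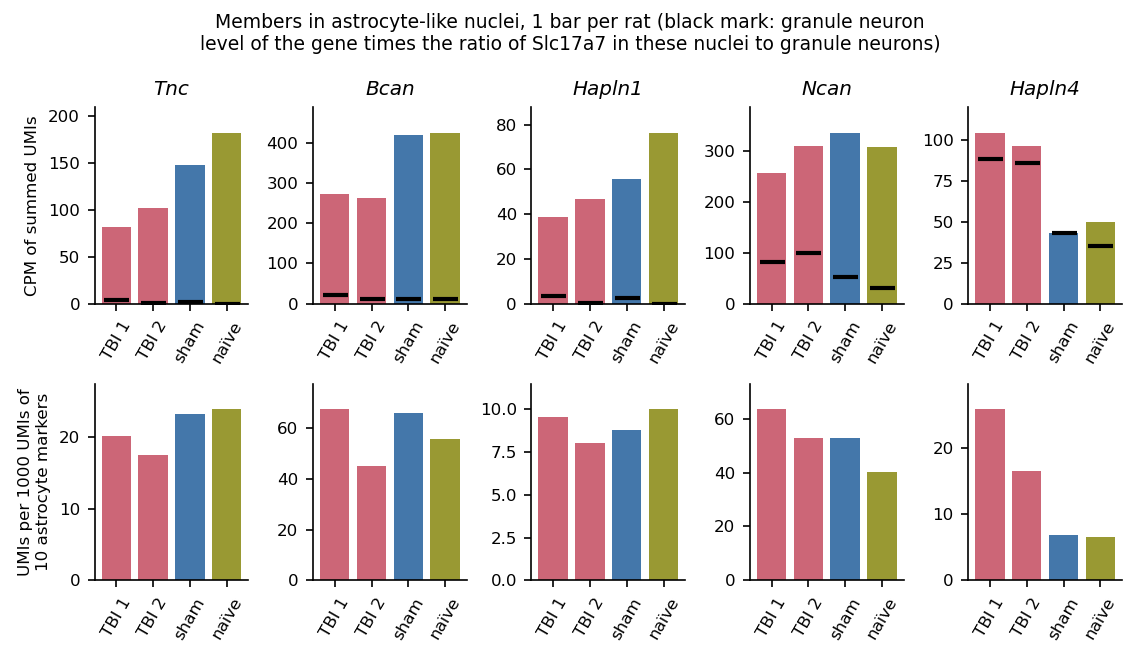
Members in astrocyte-like nuclei, with 1 bar per rat (red TBI, blue sham, olive naïve); upper row, CPM of summed UMIs, with a black mark at the scaled level (the granule neuron level times the ratio of Slc17a7); lower row, UMIs per 1000 UMIs of 10 astrocyte markers. Tnc, Bcan and Hapln1 were lower in CPM in both TBI rats, Hapln4 was at 43.1 CPM beside a mark at 43.5 CPM in the sham rat and at 49.9 CPM beside a mark at 35.2 CPM in the naïve rat, and per 1000 marker UMIs only Tnc stayed lower in both.

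In the oligodendrocyte lineage before myelination, where Tnr, Vcan, Acan and Has2 were highest, edgeR and DESeq2 called none of the members. Of the 4 members tested in committed precursor-like nuclei, Tnr was lower in value in both TBI rats (Log2FC -0.45, SE 0.26; edgeR FDR = 0.767), and so was Bcan, at 479 and 252 CPM against 616 and 572 CPM (Log2FC -0.76, SE 0.33; edgeR FDR = 0.688). Hapln4 in these nuclei was at 136, 86.3, 17.1 and 0 CPM, from 32 UMIs. Without the sham rat, which leaves the naïve rat as the only control, edgeR called Tnr (Log2FC -0.69, FDR = 0.0371) and Hapln4 (FDR = 0.0371) in committed precursors and Bcan in precursors (Log2FC -0.75, FDR = 0.0249). In that fit the spread comes from the TBI rats alone, and edgeR called 1.66% of 3859 genes in committed precursors and 3.77% of 10186 genes in precursors. In precursor-like nuclei Tnc was at 48.4 and 59.5 CPM in the TBI rats and 44.0 and 43.4 CPM in the controls, so that here it was higher in value in both TBI rats (Log2FC 0.26, SE 0.29; edgeR FDR = 0.997). Has2 was at 14.8 and 20.5 CPM against 12 and 17.3 CPM and overlapped (Log2FC 0.23, SE 0.50; edgeR FDR = 0.997). Acan was at 22.7 and 28.7 CPM against 17.0 and 18.6 CPM (Log2FC 0.49, SE 0.42; edgeR FDR = 0.997), and Vcan at 542 and 634 CPM against 587 and 799 CPM, with overlap. In GABAergic neuron-like nuclei none of the 8 members tested had a p under 0.05, and Acan was at 6.99 and 10.2 CPM in the TBI rats and 7.84 and 5.26 CPM in the controls.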

How the data were processed

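Dentate gyrus RNA of 3 sham and 3 TBI rats (bulk RNA-seq) and nuclei of 2 TBI, 1 sham and 1 naïve rat (snRNA-seq) were analysed, grouped by the sample labels. The authors assigned bulk reads to transcripts with kallisto and deposited estimated counts, which need not be whole, for 31715 transcripts (its version is not named). A table of log2 CPM for 14166 genes was deposited too, with 0.5 added to each count. Gene counts were worked back from these values and rounded to whole counts for the count models, and 71.3% equalled a single transcript within 0.01. For nuclei the authors ran Cell Ranger on exons and introns against Rnor_6.0 and deposited UMI counts. Transcripts of Vcan and Tnr were not matched in the transcript table.

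The study's filters were applied (UMIs from 500, features from 300, log10 genes per log10 UMIs from 0.8, mitochondrial UMIs up to 5% and ribosomal UMIs up to 2%), and doublets were not removed. They were clustered in Seurat 5.3.0 (log-normalization to 10000, 1993 variable features without the members, 25 components, CCA integration, resolution 0.6). Clusters with at least 3 leading markers took a class name where the next class scored at most 66.7% of the first. These names were rebuilt here and can differ from the study's. Of the kept nuclei, 2362 in 4 clusters stayed unnamed. The largest of these clusters held 2092 nuclei and had mitochondrial genes and Gfap among its top genes.

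The main test was the quasi-likelihood test of edgeR 4.0.16 with TMM factors, on gene counts per bulk library or UMI sums per rat, adjusted by Benjamini-Hochberg over all genes tested, with an FDR under 0.05 as a call. DESeq2 1.42.0, limma 3.58.1, other normalizations, filters and covariates, other ways to class nuclei and leaving out each library were alternatives. The scripts were tested on simulated data. Software was R 4.3.3 and Python 3.11.15 with matplotlib 3.10.9 and scipy 1.17.1. Each library came from a separate rat, and the control spread in nuclei includes the difference between sham surgery and none.

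The text names all 10 members, of each related list the 4 genes of largest absolute Log2FC in bulk whose TBI libraries all lay on one side of all sham libraries, and for each member the 3 genes most like it over clusters; 1 gene that the rule names is not reported here. The members and lists were chosen with earlier results of these data known. Sham and TBI libraries share replicate numbers 1 to 3, and the deviations of same-numbered libraries correlated at 0.35, 0.17 and -0.03, so the numbers were not taken to pair them. Promoter windows are from RefSeq on GRCr8.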

Additional observations from a re-analysis of the deposited data

Results flagged for a closer look

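Bcan and Tnc pointed in opposite directions in bulk tissue and in nuclei, with every TBI sample on one side of every control in each. In bulk, 11.7% of all genes had all TBI libraries above all sham libraries. In astrocyte-like nuclei, 17.8% of genes with at least 100 UMIs had both TBI rats below both controls. The difference between the assays was not tested, since libraries, controls and RNA fractions differ. For Tnc, the Log2FC was 0.95 in bulk and -0.73 over all nuclei, -0.92 in astrocyte-like nuclei and 0.26 in oligodendrocyte precursor-like nuclei. For Bcan, it was 0.16 in bulk and -0.55 over all nuclei, -0.72 in astrocyte-like nuclei and -0.76 in committed oligodendrocyte precursor-like nuclei. Within the nuclei, Tnc was lower in value in both TBI rats in astrocyte-like, endothelial-like (Log2FC -1.42), oligodendrocyte-like (-1.11) and GABAergic neuron-like nuclei (-0.80). Outside astrocyte-like nuclei these values rest on few UMIs. Tnc had 44 UMIs in endothelial-like nuclei, and over rats it was at 8.67 to 19.8 CPM in oligodendrocyte-like and 3.15 to 8.10 CPM in GABAergic neuron-like nuclei. The share of all genes split this way was not counted in these 3 classes. Tnc was higher in both TBI rats in the precursor class and overlapped in granule and non-granule glutamatergic neuron-like nuclei. Bcan was lower in both in endothelial-like nuclei too (-1.14) and overlapped in the remaining classes tested. None of these was called by edgeR, and the differences between classes were not tested either. The summed astrocyte markers moved in the same opposite ways, although the sums are unlike. In bulk tissue, 9 markers without Slc1a2 summed to 2611 to 3387 CPM in sham and 5013 to 8276 CPM in TBI. With Gfap left out too, the sums were 1720 to 2083 CPM in sham and 2362 to 2881 CPM in TBI. Within astrocyte-like nuclei, 10 markers with Slc1a2 and Gfap summed to 6365 and 7643 CPM in controls and 4044 and 5842 CPM in TBI. Astrocyte-like nuclei, counted without the unnamed cluster that had Gfap among its top genes, were also a smaller share in both TBI rats. The part of these markers and of that share in the values of Tnc and Bcan was not tested.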

How the results depend on the processing

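In bulk, the number of members called was 0 by edgeR and 2 (Tnc and Hapln2) when DESeq2's p-values were adjusted as the study did, over genes with p under 0.05 only. At a threshold of 0.05 that adjustment calls every gene with an unadjusted p under 0.05, so these 2 calls add nothing to the unadjusted p. The study also set a minimum absolute Log2FC, which was not applied here. Leaving out each library gave 0 to 1, with 1 from DESeq2 without sham 1 (Hapln2) or without sham 2 (Tnc). With the replicate number as a block, 0 members and 61 of 14166 genes were called, and whether the numbers pair the rats is not given by the labels. Of the related genes, 0 were called by edgeR, 5 by DESeq2 and 18 with the study's adjustment, and 0 to 9 with 1 library left out. In nuclei, 0 to 1 member was called over all nuclei with a library left out (1 without TBI rat 1), and by class 3 by DESeq2, 3 by edgeR without a filter and 0 to 3 with a library left out (3 without the sham rat). Over the whole bulk table edgeR called 0 genes and DESeq2 349. The study's adjustment gave 1525, which are all the genes with a DESeq2 p under 0.05.

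The direction of some values turned. In bulk, Vcan ranged from -0.32 to 0.21 and Hapln1 from -0.0234 to 0.18 with a library left out. Over all nuclei, Tnr was 0.0483 with library totals only and ranged from -0.12 to 0.0852, and Has2 from -0.10 to 0.48. Vcan in committed precursors was 0.57 under a marker gate on each nucleus, Bcan in precursors ranged from -0.75 to 0.35, and Hapln2 in oligodendrocyte-like nuclei was 0.0192 without a filter and ranged from -0.45 to 0.53. The causes were not tested. Of the values of single genes under alternatives, 343 kept direction and side of the threshold, 11 newly passed it and 4, those per 1000 astrocyte marker UMIs, moved by more than the spread. Immature granule neuron and precursor classes of the marker gate could not be fitted, having too few UMIs. Depth limits Acan and Has2 most, with 794 and 122 UMIs in all nuclei.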
